A study of Mus musculus with 19 samples.

Results

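The 8 troponin genes of the mouse were followed in the 5-hydroxymethylcytosine (5-hmC) profiles of isolated cardiomyocytes (CMCs). These are all genes that encode a troponin T (Tnnt2, Tnnt1 and Tnnt3), a troponin I (Tnni3, Tnni1 and Tnni2) or a troponin C (Tnnc1 and Tnnc2) of striated muscle, 8 of 21000 protein-coding genes with a curated RefSeq model. They were chosen by name and not by a measured value, though with earlier results of these data known. CMCs of C57BL/6J mice were profiled at 4 points, E14.5 embryos, Neonatal pups, Adult mice and mice after transverse aortic constriction (TAC), an operation that narrows the aorta and puts the heart under pressure, with 2 replicates at each point. By the study's methods the mice were male, the pups 1 or 2 days and the adults 2 months old, and the hearts of the TAC mice were taken after 1 week. The Adult labels name no sham operation, so that surgery and pressure cannot be told apart. Embryonic and neonatal cells came from digested ventricles after pre-plating, adult cells from the perfused left ventricle after sedimentation, so that age and isolation cannot be told apart either. An antibody was used to pull down DNA fragments with 5-hmC for sequencing (hMeDIP), and enriched regions, the peaks, were called in each replicate against input DNA. The measure used here is the percent of a gene's window, its span with 5 kb on each side, that lies under peaks. A percent of this kind is relative to length and can be compared between genes, but it gives the extent of called regions and not the amount of 5-hmC. In a pool of cells, fewer cells with the mark and less of it per cell cannot be told apart.

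Troponin is the calcium switch of the thin filament. Troponin C binds calcium, troponin I holds actin in the state that cannot bind myosin, and troponin T ties the complex to tropomyosin. Tnnt2, Tnni3 and Tnnc1 encode the subunits of the adult heart, and Tnnc1 also serves slow skeletal fibres. Tnni1 and Tnnt1 encode the slow skeletal forms. The fetal heart uses the slow skeletal troponin I of Tnni1, which is replaced after birth by the cardiac form of Tnni3. Tnnt3, Tnni2 and Tnnc2 encode the forms of fast skeletal fibres. 5-hmC is made from methylated cytosine by TET enzymes and is found in the gene bodies (GBs) of many active genes. Most of these genes lie in pairs of a troponin I and a troponin T gene. Tnni1 and Tnnt2 are 25.3 kb apart on chromosome 1 with Lad1 between them, Tnni3 and Tnnt1 are 2.33 kb apart on chromosome 7, and Tnni2 and Tnnt3 are 54.4 kb apart on chromosome 7 with Lsp1 between them. Tnnc1 is on chromosome 14 and Tnnc2 on chromosome 2. The windows of Tnni3 and Tnnt1 share 7671 bp, and values of these 2 genes are not independent.

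The peak lists held between 104215 and 153637 peaks and covered between 65.1 and 119 Mb. The lists do not hold the number of reads behind each of them, and no interval that needs it is given. In TAC replicate 2, 17.8% of peak centres lay within 200 bp of a centre in another list, against 64.7% to 76.8% in the other 7. Within the troponin windows the same held for 6 of 24 peaks of TAC replicate 2. The window coverage of each member is therefore given for each TAC replicate. Counts of genes from Adult to TAC and their shares of all genes use both TAC replicates. Windows of 8 CMC genes, such as Actn2 and Myh6, were covered to a median of 8.30% to 35.8% in the 8 lists. Those of 8 fibroblast genes were covered to a median of 0% to 2.53%, below the median of all genes tested in each list. Medians of 6 endothelial genes were 3.39% to 10.2% and those of 3 leukocyte genes 0% to 12.9%. Both were above the median of all genes in some lists and below it in others. They were 8.55% and 6.38% in E14.5 replicate 1, against 3.86%, and 3.39% and 0% in TAC replicate 1, against 3.81%.

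Averaged over the 8 samples, the median coverage of the troponin windows was 21.2%, against 4.32% over the 19074 genes with a peak in at least 1 list. All 8 members were among these. Tnni3 was covered most, at 32.2% (percentile 99.5 of the genes tested), followed by Tnnt1 with 28.4%, Tnni2 with 25.8% and Tnnt2 with 23.9%. Tnni1 had 18.5%, Tnnc1 14.8% and Tnnt3 11.7%. Tnnc2 was the exception with 3.71% (percentile 44.8). The order therefore did not follow the cardiac and skeletal classes, since the fast skeletal Tnni2 ranked above Tnnt2. The ranges over the samples of neighbours in this order overlapped, Tnnt3 and Tnnc2 included. In all, 227 peaks touched the windows, with a median width of 687 bp.

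**Figure D1:**
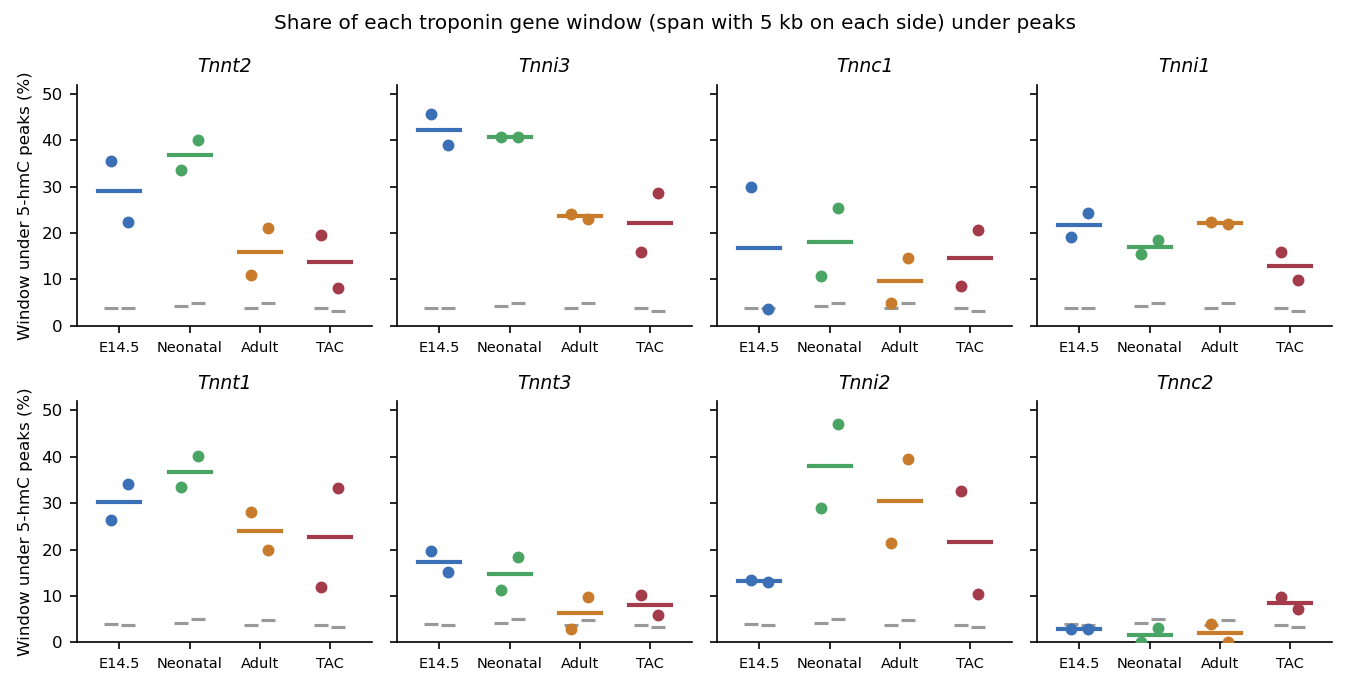
Percent of each troponin gene window under 5-hmC peaks (y axis) at the 4 points (x axis). Each coloured point is 1 sample, each coloured line the mean of 2 replicates, and the grey dashes mark the median over 19074 genes in the same sample. Tnnt2 and Tnni3 sat higher at E14.5 and Neonatal than in Adult, Tnni1 lay between 9.81% and 24.4%, and Tnnc2 stayed below 10%.

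The question behind the series is how 5-hmC moves with development and pressure overload. Differences over the 4 points were tested for each gene by an exact permutation test that set the spread between the 4 points against that of all 105 ways to sort 8 samples into pairs (one-sided). No member passed a p of 0.05. The exact permutation p was 0.0857 for Tnni3, 0.0952 for Tnni1, 0.124 for Tnnt2, 0.143 for Tnnc2, 0.152 for Tnnt3, 0.333 for Tnni2, 0.429 for Tnnt1 and 0.886 for Tnnc1. Adjusted over all genes by the Benjamini-Hochberg method, the smallest value of this permutation test for any gene was 0.597. Of all genes tested, 7.33% had an unadjusted p of 0.05 or less. Between 2 points, 2 against 2 samples cannot give a two-sided exact permutation p below 0.333. Such pairs of points are therefore described by whether both replicates of one point lay above both of the other, beside the percent of all genes tested for which this held.

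Tnnt2 encodes cardiac troponin T and spans chr1:135836334-135852268 on the plus strand (mm10). Its window was covered to 35.6% and 22.4% (E14.5), 33.5% and 39.96% (Neonatal), 10.9% and 21.1% (Adult) and 19.5% and 8.14% (TAC). All 4 embryonic and neonatal values were above all 4 adult and TAC values. The share of all genes with this order was not counted. All 4 earlier lists also held more peaks than all 4 later ones. The mean was 36.8 ± 4.54 (SD, n = 2) in Neonatal and 16.0 ± 7.27 (SD, n = 2) in Adult CMCs, a difference of -20.8 percentage points. The separation was clearest on the GB. There the 4 embryonic and neonatal lists covered 32.1%, 29.1%, 29.3% and 30.1%, whereas the Adult lists covered 6.29% and 12.6% and the TAC lists 9.81% and 5.13%. On the GB alone the exact permutation p over the 4 points was 0.0571. The 5 kb before the TSS, the first part of which belongs to Lad1, gave no such order, with 52.3% and 13.4% (E14.5), 72.1% and 65.6% (Neonatal), 36.3% and 69.6% (Adult) and 53.1% and 15.8% (TAC).

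On Tnnt2, the bases under peaks of both replicates formed 6 regions in embryonic and 6 in neonatal cells, but 1 in adult cells and 1 after TAC. They made up 14.4%, 26.3%, 6.998% and 2.45% of the window. The TAC value needs overlap with TAC replicate 2, whose peak centres stand apart, and under peaks of either replicate the window was covered to 25.001% in Adult and 25.2% in TAC CMCs, against 43.6% at E14.5 and 47.2% in Neonatal CMCs. Stretches found in all 4 embryonic and neonatal lists and in neither Adult list made up 6.67% of the window, against 0.268% over all windows tested. At least 100 bp of such stretches in a window was found for 4 of the 8 members, Tnnt2, Tnni3, Tnni1 and Tnnt1, and for 23.2% of all genes tested. Of the 399 bp on Tnnt1, a stretch of 273 bp and another of 63 bp are the same bases as on Tnni3. Tnni1 held 102 bp. The longest stretches of this kind among the members were 897 bp and 580 bp, both on Tnnt2, and neither was under a peak in the TAC lists. The stretch of 897 bp ends where a peak of 501 bp of Adult replicate 2 begins, which lies within the peaks of both E14.5 lists and of Neonatal replicate 2, so that 1 Adult list marked part of the same region. The peaks around the stretch of 580 bp overlapped none of the Adult or TAC lists. The central 300 bp of each are shown from the GRCm38 reference, which is mm10, because they are the longest of this kind. They are read 5′ to 3′ on the strand of the gene, with CpG dinucleotides, where most 5-hmC is found, in capitals.
Tnnt2, intron, chr1:135843466-135843765, 7132 to 7431 bp after the TSS: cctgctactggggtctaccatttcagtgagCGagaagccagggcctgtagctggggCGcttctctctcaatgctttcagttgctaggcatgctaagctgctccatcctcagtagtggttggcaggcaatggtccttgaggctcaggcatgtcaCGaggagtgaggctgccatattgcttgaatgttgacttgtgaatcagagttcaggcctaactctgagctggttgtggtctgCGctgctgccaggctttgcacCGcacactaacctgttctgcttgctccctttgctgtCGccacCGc
Tnnt2, with 117 coding bases, chr1:135847942-135848241, 11608 to 11907 bp after the TSS: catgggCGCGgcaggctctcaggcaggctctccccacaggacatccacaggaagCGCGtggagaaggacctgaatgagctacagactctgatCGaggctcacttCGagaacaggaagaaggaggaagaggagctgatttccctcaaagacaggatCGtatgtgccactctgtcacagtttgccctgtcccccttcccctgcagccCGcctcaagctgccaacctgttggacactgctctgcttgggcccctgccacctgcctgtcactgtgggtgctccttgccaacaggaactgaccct
The first holds 7 CpGs and no base that the reference marks as repeat. The second holds 8 CpGs.

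Tnni1 encodes slow skeletal troponin I and spans chr1:135799421-135810989 on the plus strand (mm10), upstream of Tnnt2. Its window was covered to 19.2% and 24.4% (E14.5), 15.4% and 18.4% (Neonatal), 22.5% and 21.98% (Adult) and 16.0% and 9.81% (TAC). The Adult values lay within those of E14.5, and both were above the Neonatal and TAC values. The Adult mean exceeded the Neonatal mean by 5.32 percentage points. With the longer GENCODE span of Tnni1 the sign turned, to -0.709. The Neonatal mean was 4.89 points below the E14.5 mean (difference of -4.89), and this sign turned to 0.823 with the GENCODE span, to 0.483 with flanks of 10 kb and to 0.051 when the same number of peaks was drawn from each list.

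On Tnni1, stretches under peaks in both Adult lists and in no embryonic or neonatal list made up 4.89% of the window, against 0.613% over all windows tested. At least 100 bp of this kind was found for Tnni1 and Tnnt3 among the 8 members and for 35.8% of all genes tested, so that its presence alone sets neither gene apart. On Tnni1 these were 3 stretches, of 361, 218 and 475 bp, and each borders on an earlier peak. The peaks of the Adult lists ran from -156 to 1093 bp and from -125 to 1200 bp around the TSS, and E14.5 replicate 2 had a peak from 236 to 875 bp within them. The stretches of 361 and 218 bp are what the Adult peaks covered on either side of it, and that of 361 bp lies across the TSS. The stretch of 475 bp ends where a peak of Neonatal replicate 1 begins. In RefSeq's promoter window of 300 bp at the first of 2 TSSs, coverage was 0% in all 4 embryonic and neonatal lists, 68.7% and 58.3% in the Adult lists, and 0% and 100% in the TAC lists. Promoter windows were given for 6 of the 8 members, and no Adult list held a peak in the promoter window of the other 5. The 3 adult stretches are shown, the longer ones in part, because they are the bases by which the Adult peaks extended beyond the earlier ones, again with CpGs in capitals and without the untranslated exon.
Tnni1, before the TSS, chr1:135799296-135799420, 125 to 1 bp before the TSS: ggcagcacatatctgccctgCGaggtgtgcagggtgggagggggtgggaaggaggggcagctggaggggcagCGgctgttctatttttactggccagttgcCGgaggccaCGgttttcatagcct
Tnni1, intron, chr1:135800297-135800514, 876 to 1093 bp after the TSS: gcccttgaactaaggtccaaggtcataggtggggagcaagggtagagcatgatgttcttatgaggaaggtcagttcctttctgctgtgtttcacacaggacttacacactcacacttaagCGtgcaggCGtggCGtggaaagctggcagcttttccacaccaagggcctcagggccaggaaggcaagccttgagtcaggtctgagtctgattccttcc
Tnni1, with 81 coding bases, chr1:135807302-135807601, 7881 to 8180 bp after the TSS: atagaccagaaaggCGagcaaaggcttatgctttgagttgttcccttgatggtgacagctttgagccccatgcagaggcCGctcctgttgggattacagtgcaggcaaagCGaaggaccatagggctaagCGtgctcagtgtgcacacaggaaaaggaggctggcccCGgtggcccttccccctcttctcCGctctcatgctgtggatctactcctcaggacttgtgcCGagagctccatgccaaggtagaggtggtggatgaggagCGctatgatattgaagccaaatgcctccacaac
They hold 4, 3 and 8 CpGs. The latter 2 stretches were free of peaks in both TAC lists. Of the TSS stretch, 42.7% was covered in TAC replicate 1 and 100% in TAC replicate 2. The embryonic and neonatal lists covered other parts of the GB of Tnni1. A stretch of 556 bp around 6.05 kb after the TSS was under a peak in all embryonic, neonatal and Adult lists and in neither TAC list.

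**Figure D2:**
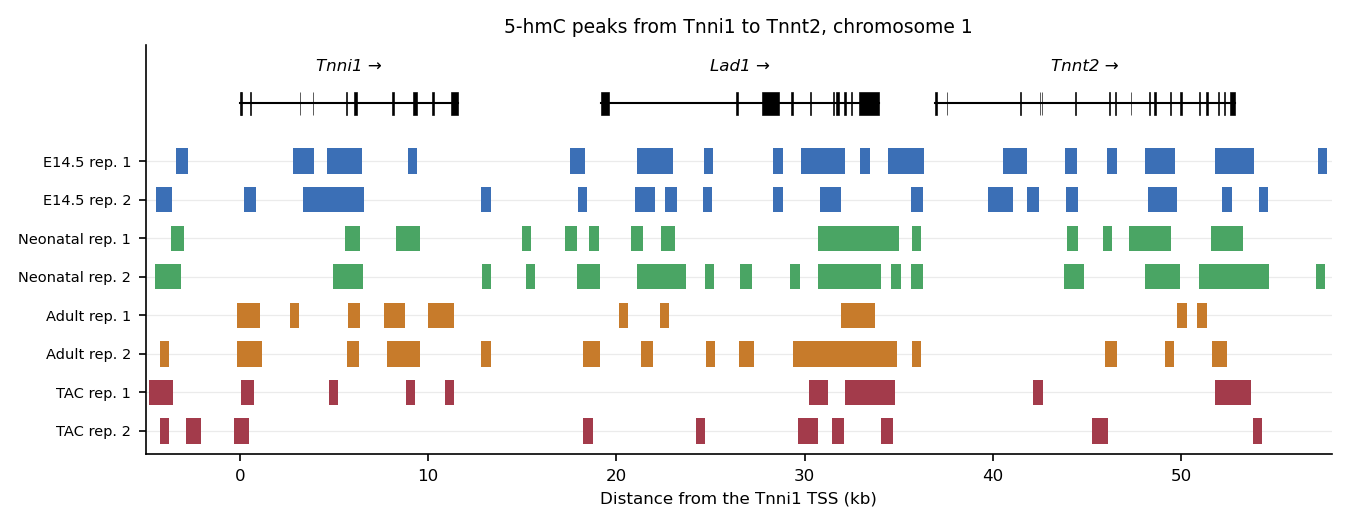
Peaks of each sample (rows, coloured by point) from Tnni1 to Tnnt2, by distance from the Tnni1 TSS in kb (x axis), with exons as black boxes and arrows for the direction of transcription. Both Adult rows and TAC replicate 2 have a peak across the Tnni1 TSS. TAC replicate 1 has one from 82 bp and E14.5 replicate 2 one from 236 bp after it. Inside Tnnt2, peaks cover less of the gene in the Adult and TAC rows than in the others.

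Tnni3 encodes cardiac troponin I and spans chr7:4518305-4522528 on the minus strand (mm10). Its window was covered to 45.6% and 39.0% (E14.5), 40.6% and 40.6% (Neonatal), 24.2% and 23.1% (Adult) and 15.9% and 28.6% (TAC). As on Tnnt2, all embryonic and neonatal values were above all adult and TAC values, an order whose share over all genes was not counted. The mean was 40.6 ± 0.00994 (SD, n = 2) in Neonatal and 23.6 ± 0.766 (SD, n = 2) in Adult CMCs, a difference of -17.0 percentage points. On the GB the order was graded, with 79.0% and 79.9% at E14.5, 48.9% and 58.03% in Neonatal, and 26.9% and 29.5% in Adult CMCs. The TAC replicates disagreed, at 0% and 50.3%. With 104215 peaks of each list, drawn once at random, the difference from Neonatal to Adult was -3.64 points and that from E14.5 to Adult turned to 2.04, with overlapping replicates in both. Outside the bases shared with the window of Tnnt1, the replicates of Neonatal and Adult overlapped and the difference was -8.56.

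On Tnni3, peaks of both replicates shared 6 regions in embryonic, 5 in neonatal and 2 in adult cells, and 2 after TAC, which made up 27.2%, 25.5%, 7.69% and 1.76% of the window. Under peaks of either replicate the Adult and TAC values were 39.6% and 42.7%, so that their order turned. Stretches in all 4 embryonic and neonatal lists and neither Adult list made up 2.97% of the window. The longest of them lies in an intron and is shown because it is the longest such stretch of the cardiac troponin I gene. It fills the gap between a peak of Adult replicate 2 and a peak of Adult replicate 1, which touch its ends, so that both Adult lists marked the region around it. A second stretch, close to the start of the gene, is shown because it was under a peak in every list except TAC replicate 1.
Tnni3, intron, chr7:4518948-4519220, 3308 to 3580 bp after the TSS: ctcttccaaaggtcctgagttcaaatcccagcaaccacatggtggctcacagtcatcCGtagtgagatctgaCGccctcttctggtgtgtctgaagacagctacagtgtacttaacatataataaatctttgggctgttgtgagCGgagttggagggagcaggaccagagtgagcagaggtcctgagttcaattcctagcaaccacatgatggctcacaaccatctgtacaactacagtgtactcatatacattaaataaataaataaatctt
Tnni3, with 13 coding bases, chr7:4521932-4522129, 399 to 596 bp after the TSS: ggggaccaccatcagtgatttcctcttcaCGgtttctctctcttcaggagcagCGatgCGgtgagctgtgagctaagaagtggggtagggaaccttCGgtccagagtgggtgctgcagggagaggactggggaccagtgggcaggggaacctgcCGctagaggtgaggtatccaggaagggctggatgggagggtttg
Of the first, 92.3% is marked as repeat in the reference, it holds 3 CpGs, and TAC replicate 2 covered 97.8% of it. The second holds 5 CpGs and no base marked as repeat. At least 100 bp under peaks in at least 7 of the 8 lists was found for Tnni3 and Tnni2 among the members and for 18.1% of all genes tested.

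Set side by side, the 2 troponin I genes of the heart differed in coverage by sample. Tnni3 exceeded Tnni1 by 26.4 and 14.6 percentage points at E14.5 and by 25.2 and 22.2 in Neonatal CMCs. In Adult CMCs the gap was 1.69 and 1.11 points. In TAC CMCs it was -0.067 in replicate 1 and 18.7 in replicate 2. With the full windows, the gap in both Adult samples was smaller than in any embryonic or neonatal sample. In these 2 samples the values of Tnni3 were below those of all 4 earlier samples, and the values of Tnni1 were within them. This order of the gap did not hold without the bases that the window of Tnni3 shares with that of Tnnt1. Tnni3 then had 34.8% against 21.98% for Tnni1 in Adult replicate 2. In E14.5 replicate 2 it had 27.3% against 24.4%, a smaller gap. No test was made of the gap.

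**Figure D3:**
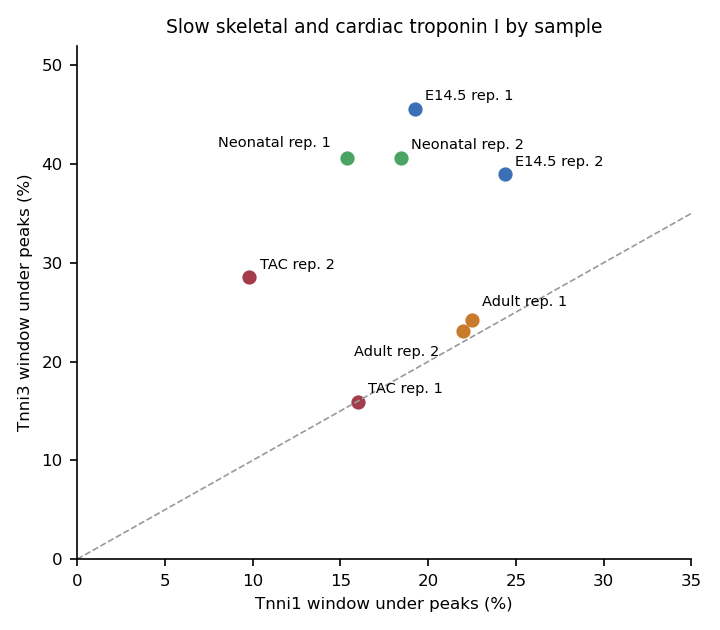
Percent of the Tnni1 window (x axis) against percent of the Tnni3 window (y axis) under 5-hmC peaks, with 1 point for each sample and a dashed line where both are equal. The 2 Adult samples and TAC replicate 1 lie within 2 percentage points of the line, and the other 5 lie above it.

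Tnnt1 encodes slow skeletal troponin T and spans chr7:4504570-4515975 on the minus strand (mm10), downstream of Tnni3. Its window was covered to 26.4% and 34.05% (E14.5), 33.4% and 40.1% (Neonatal), 28.1% and 19.97% (Adult) and 11.96% and 33.3% (TAC). Both Neonatal values were above both Adult values, by 12.7 points between the means (difference of -12.7), and the E14.5 and Adult values overlapped. Without the bases shared with the window of Tnni3 the Neonatal and Adult replicates overlapped, with 26.3% and 40.8% against 30.7% and 23.8%. On the GB alone they overlapped too. The stretch of Tnni3 printed first above also lies in the 5′ flank of Tnnt1.

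**Figure D4:**
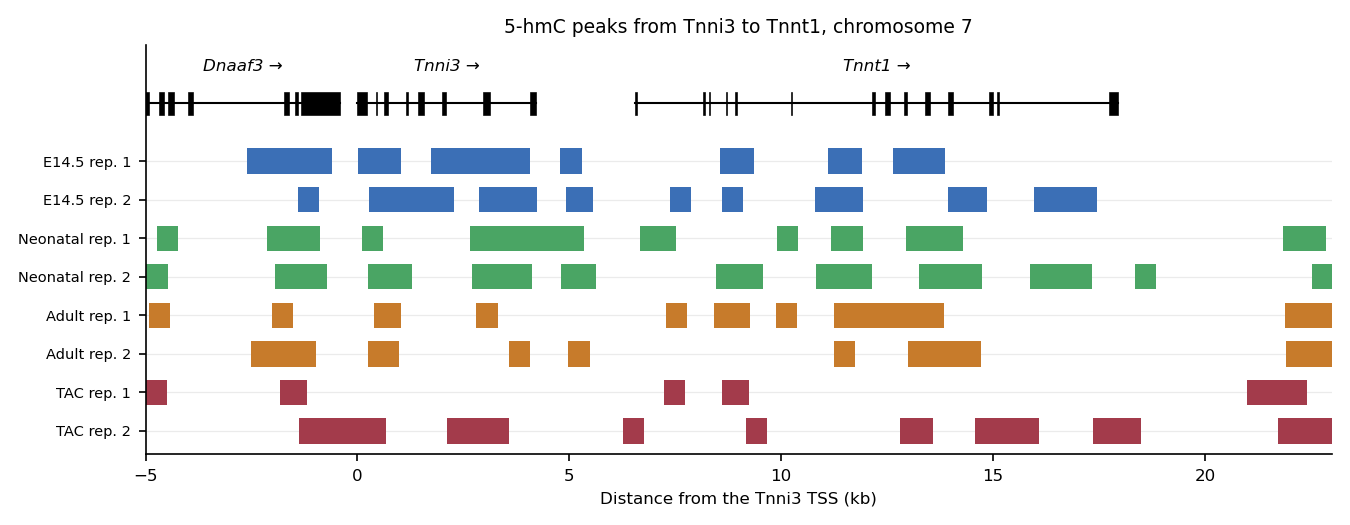
Peaks of each sample (rows, coloured by point) from the end of Dnaaf3 over Tnni3 to Tnnt1, by distance from the Tnni3 TSS in kb (x axis), with exons as black boxes. Blocks over Tnni3 are broad at E14.5 and Neonatal and narrower in Adult, and TAC replicate 1 has no peak on the Tnni3 GB.

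Among the fast skeletal genes, Tnni2 stood apart. It encodes fast skeletal troponin I and spans chr7:142441816-142444410 on the plus strand (mm10). Its window was covered to 13.4% and 13.0% (E14.5), 29.0% and 47.1% (Neonatal), 21.5% and 39.6% (Adult) and 32.6% and 10.4% (TAC). The E14.5 values were below all Neonatal and Adult values, and the TAC values lay on both sides. The mean was 2.89-fold higher in Neonatal than at E14.5 and 2.32-fold higher in Adult than at E14.5. In the Neonatal lists 62.7% and 88.4% of the GB was under peaks, against 19.3% and 24.3% at E14.5. One stretch with 129 coding bases was under a peak in every list except E14.5 replicate 1 and is shown for that reason.
Tnni2, chr7:142443236-142443441, 1420 to 1625 bp after the TSS: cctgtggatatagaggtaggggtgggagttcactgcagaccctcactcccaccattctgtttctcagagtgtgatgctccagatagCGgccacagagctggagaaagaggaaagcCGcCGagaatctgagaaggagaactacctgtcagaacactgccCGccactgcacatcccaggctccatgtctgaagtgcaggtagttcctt
It holds 4 CpGs. The E14.5 to Neonatal difference of Tnni2 kept its direction and its separation in all 14 alternatives run, and that from E14.5 to Adult kept its direction in 14 and its separation in 13.

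Tnnt3, which encodes fast skeletal troponin T and spans chr7:142498836-142516009 on the plus strand (mm10), was covered to 19.6% and 15.2% (E14.5), 11.3% and 18.3% (Neonatal), 2.91% and 9.87% (Adult) and 10.2% and 6.00% (TAC). Both Adult values were below all embryonic and neonatal values. The mean was 14.8 ± 5.01 (SD, n = 2) in Neonatal and 6.39 ± 4.92 (SD, n = 2) in Adult CMCs. The exact permutation p of Tnnt3 over the 4 points was 0.152. Scaled to the mean window of each sample it was 0.00952, the smallest that the 105 divisions can give. This value is unadjusted and was the lowest of the 154 alternatives run for all members. In the other alternatives that kept both replicates, the permutation p of Tnnt3 lay between 0.0857 (peaks widened by 500 bp) and 0.419 (gene span alone). Tnni2, the neighbour of Tnnt3 on the other side of Lsp1, thus had the opposite order of E14.5 and Adult.

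The troponin C genes were covered least within their classes. Tnnc1 encodes the troponin C of heart and slow fibres and spans chr14:31208312-31211729 on the plus strand (mm10). Its window was covered to 29.9% and 3.73% (E14.5), 10.8% and 25.4% (Neonatal), 5.00% and 14.54% (Adult) and 8.52% and 20.7% (TAC). The replicates of each point differed more than the means of the points, and the replicates overlapped in each of the 4 steps compared. Only E14.5 replicate 1 had a peak on the GB of Tnnc1, over 37.1% of it. In the other 7 lists the peaks lay in the flanks.

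Tnnc2 encodes fast skeletal troponin C and spans chr2:164777161-164779734 on the minus strand (mm10). It was covered to 2.86% and 2.88% (E14.5), 0% and 3.03% (Neonatal), 3.98% and 0% (Adult) and 9.75% and 7.21% (TAC). No list held more than 1 peak in this window. The TAC values were above the others, but the peak of replicate 1 lay on the GB and that of replicate 2 in the 3′ flank. No base was shared by the TAC replicates. The peaks of both E14.5 lists and Neonatal replicate 2 were 1849, 1467 and 1476 bp wide, those of TAC 1226 and 907 bp. The window edge cut the former to 359, 362 and 381 bp. From Adult to TAC the separation held in 9 of 14 alternatives. It was lost with flanks of 2 kb, 10 kb or none, with peaks per 10 kb and with the share of CpGs.

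**Figure D5:**
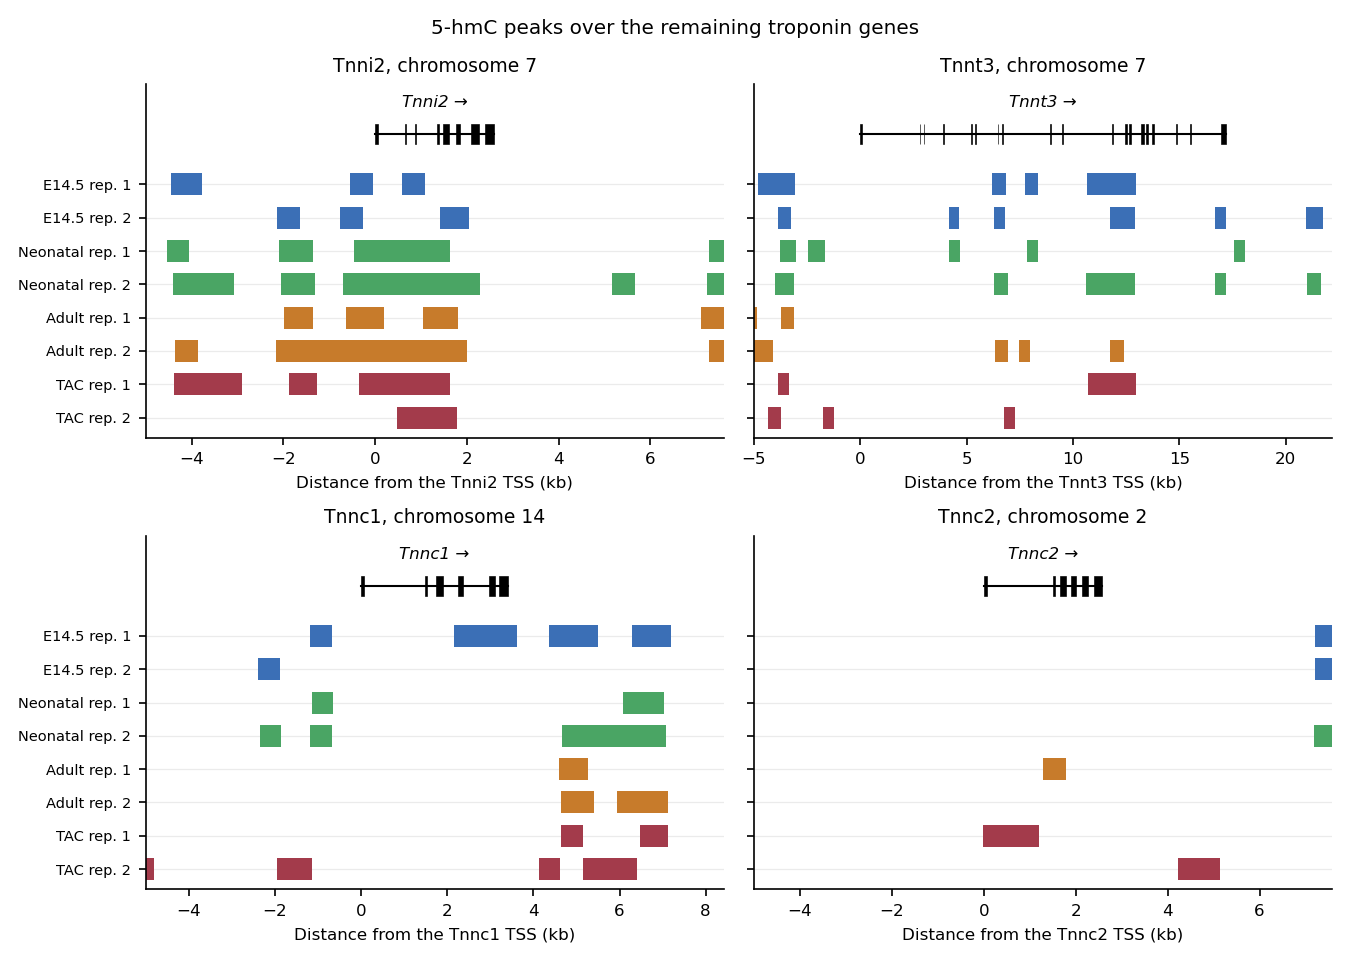
Peaks of each sample (rows, coloured by point) over the windows of Tnni2, Tnnt3, Tnnc1 and Tnnc2, by distance from each TSS in kb (x axis), with exons as black boxes. Tnni2 carries peaks on or beside its GB in all 8 rows, whereas Tnnc2 has at most 1 peak in a row.

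Of the 4 steps, Neonatal to Adult held the largest number of separations among the 8 members, with 5 against 4 from E14.5 to Adult. This lead did not hold in every alternative. The counts were 3 and 4 with the gene span alone or the same number of peaks drawn. Both were 4 with flanks of 2 kb or of 10 kb, whereas peaks per 10 kb gave 3 and 2. From Neonatal to Adult, Tnnt2, Tnni3, Tnnt1 and Tnnt3 were lower without overlap of the replicates, as were 21.3% of all genes tested, and Tnni1 was higher, as were 15.5%. The median difference of the 8 members was -8.38 percentage points, against -0.221 over all genes tested. Genes with more coverage can lose more points. Averaged over the 8 samples, median coverage was 21.2% for the members and 4.32% for all genes tested. The differences are not scaled to it. Without the bases common to Tnni3 and Tnnt1, both of these genes left the 4 and 2 members were lower. Lists differed in length in the same direction, with 137172 and 153637 peaks in Neonatal and 104215 and 121214 in Adult CMCs. With the same number of peaks drawn from each list 2 members were lower and 1 higher. The difference of Tnnt2 was then -22.7 points, close to its value from the full lists.

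From E14.5 to Neonatal, Tnni2 was higher, as were 25.3% of all genes tested, and Tnni1 lower, as were 6.58%. The median difference of the members was -0.0127, against 0.674 over all genes. From E14.5 to Adult, Tnni2 was higher, as were 28.1% of all genes, and Tnnt2, Tnni3 and Tnnt3 were lower, as were 17.7%. The 3 lower genes comprise 2 of the 3 cardiac and 1 of the 3 fast skeletal members. From Adult to TAC, Tnnc2 was higher, as were 6.17% of all genes, and Tnni1 lower, as were 23.1%. With TAC replicate 1 alone, Tnni1 stood at 16.0% and Tnnc2 at 9.75%, still outside the Adult values. The share of all genes for which this looser rule holds was not counted. A count of 1 in 8 is no result beside the shares of all genes given here. The counts of lower members from Neonatal to Adult and from E14.5 to Adult are above the shares of all genes. Both counts fell to 2 without the bases common to Tnni3 and Tnnt1, and also with the same number of peaks drawn from each list. The list was not tested.

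By class, the mean over the 3 cardiac genes was 37.0% and 21.7% (E14.5), 28.3% and 35.3% (Neonatal), 13.3% and 19.6% (Adult) and 14.7% and 19.1% (TAC). The mean over Tnni1 and Tnnt1 was 22.8% and 29.2% (E14.5), 24.4% and 29.3% (Neonatal), 25.3% and 20.97% (Adult) and 14.0% and 21.6% (TAC). For the 3 fast skeletal genes it lay between 7.88% and 22.8% in the 8 samples. In both Adult lists the slow skeletal pair was covered more than the cardiac genes, and in 3 of the 4 embryonic and neonatal lists less. The class means of genes in overlapping windows are not independent, and no test was made of them.

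Other genes of the thin filament and its partners were set beside the members with a list of 20. Among them were actins, tropomyosins, tropomodulins and leiomodins. The list also held Tnni3k and Trdn, which do not encode subunits of the filament. From E14.5 to Neonatal 12 of the 20 were higher and 1 lower, against 25.3% and 6.58% of all genes. From Neonatal to Adult 4 were higher and 6 lower (15.5% and 21.3% of all genes), and from Adult to TAC 1 was higher and 4 lower (6.17% and 23.1%), which is near the shares of all genes. From E14.5 to Adult 9 were higher and 2 lower, against 28.1% and 17.7%. Tpm1, the α-tropomyosin to which cardiac troponin T binds, was covered to 28.2% and 23.1% (E14.5), 50.1% and 44.4% (Neonatal), 19.5% and 21.5% (Adult) and 14.1% and 5.83% (TAC). Lmod2, which controls the length of cardiac thin filaments, had 11.7% and 5.68%, 26.1% and 22.7%, 2.84% and 3.64%, and 6.48% and 8.52% at the same points. Both had their highest values in Neonatal CMCs. Lmod3, a leiomodin found mainly in skeletal muscle, was lower at E14.5, at 5.37% and 4.68%, than in Neonatal, at 14.3% and 12.4%, or Adult, at 17.4% and 18.0%. Acta2, the smooth muscle actin that early CMCs also make, had 4.002% in both samples at E14.5, 6.83% and 4.69% in Neonatal and 18.0% and 10.3% in Adult CMCs. Nrap, a protein of growing myofibrils, and Tmod1, which caps the pointed end of thin filaments, were higher in both Neonatal than in both E14.5 samples, with means of 25.9% against 12.2% and 28.8% against 20.96%. From Neonatal to Adult, 7 of the 8 genes of the CMC marker list were also lower and none higher, with a median difference of -10.9 points. Of the 8 fibroblast genes 1 was lower and none higher. Of all genes tested, 21.3% were lower and 15.5% higher in this step.

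Some neighbours between or beside the members separated in some of the same steps as the member next to them, and others did not. Lad1, an epithelial anchoring protein gene between Tnni1 and Tnnt2, had no separation in any of the 4 steps. Dnaaf3, which assembles dynein arms and lies before Tnni3, was lower in both Adult samples, at 13.5% and 14.2%, than in both Neonatal samples, at 21.4% and 23.3%, and was also lower than in both E14.5 samples, as was Tnni3. Its window overlaps that of Tnni3. Ppp1r12c, beyond the end of Tnnt1, was higher in Neonatal, at 17.1% and 19.6%, than at E14.5, at 10.2% and 7.46%, and did not separate from Neonatal to Adult. Lsp1, between Tnni2 and Tnnt3, had 35.3% and 37.2% in Neonatal and 23.1% and 32.98% in Adult CMCs, lower without overlap as on Tnnt3, whose window it overlaps. In the other steps the 2 genes differed. Lsp1 was higher from E14.5 to Neonatal and lower from Adult to TAC, where Tnnt3 did not separate. From E14.5 to Adult only Tnnt3 was lower. Syt8, before Tnni2, was higher in Neonatal, at 30.8% and 37.1%, than at E14.5, at 20.4% and 20.6%, the order of Tnni2, whose window it overlaps. From E14.5 to Adult Syt8 did not separate, whereas Tnni2 did.

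The genes elsewhere in the genome whose coverage varied most like that of a member over the 8 samples were picked by Pearson's r. For Tnnt2 these were Mcph1 (r = 0.973), Gata6 (r = 0.971) and Fstl1 (r = 0.968). For Tnni3 they were Sema6a (r = 0.978), Ikbke (r = 0.961) and Sdk2 (r = 0.955), and for Tnni1 they were Fgfr1 (r = 0.970), Gxylt1 (r = 0.929) and Tpcn1 (r = 0.927). An r above 0.9 was reached by 71 genes for Tnnt2, 37 for Tnni3 and 11 for Tnni1. The 8 points of each r share their lists and the number of peaks in them, and the genes were selected for a high value among all genes, so that no p is given.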

How the data were processed

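5-hmC was profiled by hMeDIP sequencing in CMCs at 4 points with 2 replicates each; 8 samples with a peak list were used, and 11 input or sh-control samples were not used here. Per the submitters' notes and the methods, the authors aligned reads to mm10 with BWA 0.7.4-r385, used Picard on duplicates, dropped poorly mapped reads, and ran HOMER in histone mode on each replicate against its input. The deposited lists give peak positions and a score that is the same for every peak of a list, so peaks could not be ranked by strength. They do not give the number of reads per sample. What the order of peaks in a file means is not given in the sources used here. Longer lists can cover more of a window.

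From the lists, coverage of windows (curated RefSeq NM span on GRCm38.p6 with 5 kb on each side) was computed with Python 3.11.15, numpy 2.4.6 and scipy 1.17.1 for 21000 protein-coding genes. The 19074 with a peak in at least 1 list were tested by the exact permutation test with Benjamini-Hochberg adjustment. The code was tested on simulated data. The groups come from the sample labels; that replicates were separate biological ones comes from the methods. Named genes were the 8 members, genes of the list of 20 for the thin filament and its partners, neighbours within 10 kb, and the most like genes. Of the list, 14 had replicates that did not overlap in at least 2 steps, and the 6 with the largest mean differences were named. The 3 most like genes lay at least 100 kb away and had a mean coverage of at least 5%. The members and lists were chosen with earlier results of these data known. Sequences are from RefSeq's GRCm38.p6 assembly; promoter windows were found for 6 of the 8 members. Alternatives changed the window, annotation, scaling, number and width of peaks, the measure and the replicates.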

Additional observations from a re-analysis of the deposited data

How the results depend on the processing

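The 8 tests over the 4 points were run under 154 alternatives in all, of which 147 kept the side of the 0.05 threshold. The exact permutation p passed it for Tnnt2 with peaks per 10 kb (0.0286), for Tnni3 with peaks widened by 500 bp (0.0381) or the share of CpGs under peaks (0.0381), for Tnni1 with the share of CpGs (0.0286) and for Tnnt3 with scaling to the mean window (0.00952), all unadjusted. Leaving out 1 replicate at a time gave exact permutation p from 0.0286 to 0.133 for Tnni3, with the lowest value without either TAC replicate. Replicate numbers did not pair the samples (correlations of deviations from -0.231 to 0.207); with the replicate block the permutation p was 0.292 for Tnnt2, 0.167 for Tnni3 and 0.208 for Tnni1, with 24 arrangements, and no call changed.

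Counts of members without overlap moved as follows. From E14.5 to Neonatal, 2 became 1 with GENCODE M21 and 5 with scaling; leaving out 1 replicate gave 4 to 6, above 2 whichever of the 4 samples was left out. From Neonatal to Adult, 5 became 3 with the gene span alone, with the same number of peaks drawn, with peaks per 10 kb and with bases in 1 of the Tnni3 and Tnnt1 windows only, the last chosen after seeing the data; leaving out 1 replicate gave 5 to 8, with 8 without Adult replicate 2. From Adult to TAC, 2 became 1 with flanks of 2 kb or none and 0 with peaks per 10 kb; leaving out 1 replicate gave 4 to 7, with 7 without TAC replicate 1. From E14.5 to Adult, 4 became 2 with peaks per 10 kb; leaving out 1 replicate gave 5 to 7, with 7 without E14.5 replicate 1. Fewer samples make overlap rarer by construction; for the rest the cause was not tested. Signs turned for the Neonatal minus E14.5 difference of Tnni1 with 10 kb flanks (0.483), GENCODE M21 (0.823) and peaks drawn (0.051), for Adult minus Neonatal of Tnni1 with GENCODE M21 (-0.709) and for Adult minus E14.5 of Tnni3 with peaks drawn (2.04). With peaks of either replicate, or peaks widened by 500 bp, in place of bases shared by both, 57 of 64 values of shared coverage moved by more than the SD of the replicates. The number of reads behind each list was not used here and can limit every value, since a missing peak does not show missing 5-hmC.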
